A study of Mus musculus with 2 samples.

Results

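Differentially methylated regions were examined at 39 genes of the skeletal muscle lineage, 12 myogenic regulators and 27 genes of the sarcomere and of contraction, out of 21887 protein-coding genes. The authors' list of regions between PDGFRα+ and CD137+ adipose progenitors was used. The genes were grouped by function, with earlier results of these data known, and a region was taken for a gene when it overlapped the gene body or the 5 kb on either side. Of the 34139 regions of the list, 65 met this rule, and none was counted for 2 of the genes.

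PDGFRα+ and CD137+ progenitors of adipose tissue from C57BL/6 mice were compared with 1 library each by whole-genome bisulfite sequencing, in which unmethylated cytosines are read as thymine. Magnetic sorting of subcutaneous or visceral fat cells (which of them is not stated) gave both populations, which were put through adipogenic culture and treated with dexamethasone (DEX), a synthetic glucocorticoid, so no library without DEX stands beside them. PDGFRα (CD140a) is a receptor found on adipose progenitors, and CD137 (Tnfrsf9) is a surface marker associated with beige fat precursors. The list holds no expression values, so neither the labelled cell type nor the presence of muscle cells could be checked in it. Each region carries the authors' signed score, which has no stated unit. The direction of subtraction is not stated either. Should it follow the list's title (PDGFRα+ first, CD137+ second), negative scores would stand for lower methylation in PDGFRα+ cells. Read depth is unknown, and with single libraries the spread between replicates is unknown too.

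Brown adipocytes and skeletal muscle fibres share embryonic precursors in the somites that have expressed Myf5 and Pax7, and PRDM16 favours the brown fat fate over the muscle fate. In the muscle lineage, the paired box factors PAX3 and PAX7 mark precursors, the basic helix-loop-helix factors MYF5, MYOD1, MYOG and MYF6 commit and differentiate them, and MEF2 factors act with these on the genes of the contractile apparatus. The sarcomere is built from thick myosin and thin actin filaments, the thin ones anchored at Z-discs and switched by troponin and tropomyosin.

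Regions were found at 23 of the 39 muscle genes, against 35.1% of all protein-coding genes. The regulators and the sarcomere genes held them at about the same rate, in 7 of 12 and 16 of 27 genes. The median absolute score was 47.2 over the 18 regulator regions and 41.6 over the 47 sarcomere regions. A score of 100 or more in absolute size was reached by 0 of 18 regulator regions and 9 of 47 sarcomere regions (15.5% of the whole list), 3 of those 9 at Mylk, and this difference was not tested. Negative regions were found at 20 of the 39 genes (27.8% of all protein-coding genes) and positive regions at 12 (16.9%). Only negative regions were held by 11 genes (18.2% of all protein-coding genes), only positive ones by 3 (7.33%) and both signs by 9. A region of absolute score 100 or more was found at 6 of 39 genes, against 10.8% of all protein-coding genes.

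**Figure D1:**
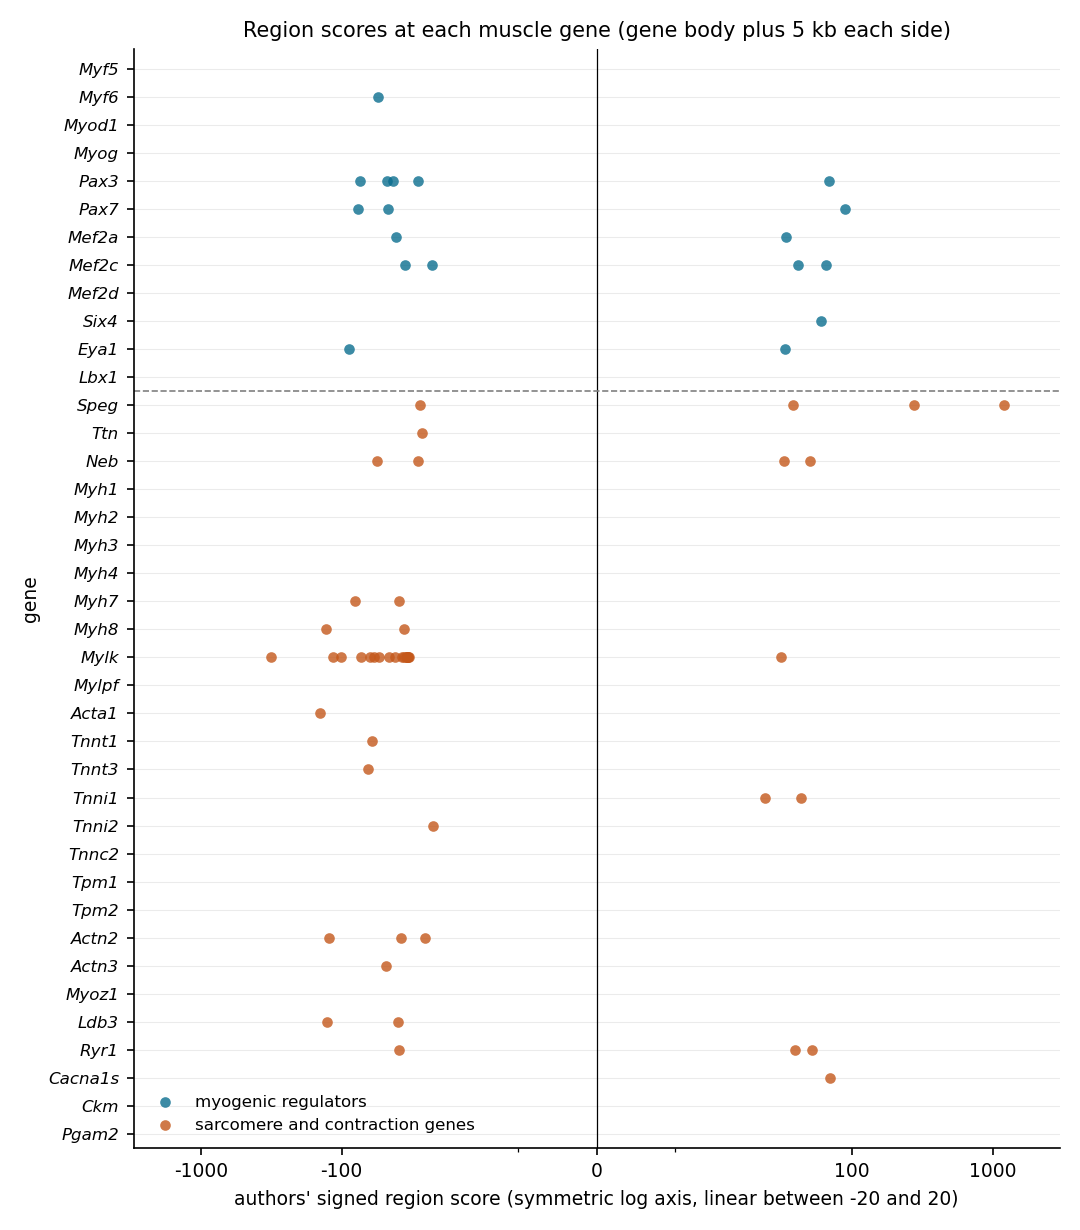
Signed score of each of the 65 regions (1 point per region, symmetric log axis) at the 39 muscle genes, with the 12 myogenic regulators above the dashed line and the 27 sarcomere and contraction genes below it. Regulator scores lie between -88.4 and 89.8, whereas Speg reaches 1216 and Mylk holds 18 regions, 17 of them negative.

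Gene length moved with the presence of a region. The share of protein-coding genes with a region was 13.9% among genes under 10 kb, 32.8% from 10 to 50 kb, 60.7% from 50 to 100 kb and 86.2% at 100 kb or more. The muscle genes had a median length of 24.0 kb, against 17.2 kb for all protein-coding genes. Under 10 kb, a region was found at 1 of 5 regulators and 2 of 7 sarcomere genes. From 10 to 50 kb the counts were 1 of 2 regulators and 6 of 12 sarcomere genes. Above 50 kb every gene of both groups held a region, 5 regulators and 8 sarcomere genes. In each class the share of both groups was above that of all protein-coding genes. The counts within a class are small, and the wide intervals of both groups include the share of all protein-coding genes. Per 100 kb of gene and flanks the muscle genes held 2.59 regions (2.10 without Mylk), against 1.62 for all protein-coding genes. The part of gene length in the higher overall share was not tested further.

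**Figure D2:**
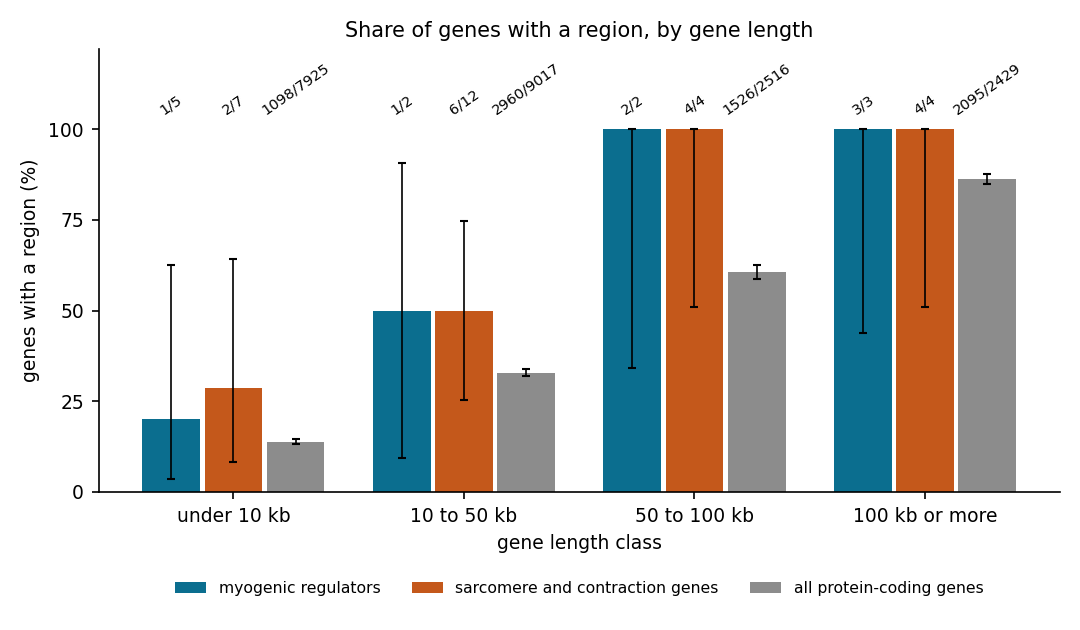
Share of genes with a region (bars, %) in 4 gene length classes for myogenic regulators, sarcomere and contraction genes and all protein-coding genes, with 95% Wilson intervals that cover counting only and the counts above the bars. The share among all protein-coding genes is 13.9% in the shortest and 86.2% in the longest class.

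The sign and size of the regions at muscle genes were close to those of the whole list. Of the 65 regions 47 were negative, or 72.3% (95% interval 60.4 to 81.7), against 67.4% of the list. The regulators had 11 of 18 negative, or 61.1% (38.6 to 79.7), and the sarcomere genes 36 of 47, or 76.6% (62.8 to 86.4). These intervals overlap, but they treat regions as independent, and 18 of the 47 sarcomere regions lie in Mylk. The sarcomere share was 65.5% (47.3 to 80.1) of 29 regions without Mylk. The median absolute score was 43.9 at the muscle genes, against 49.4 over the list. A score of 100 or more was reached by 13.8% of the 65 regions, below the share of the list. The median width was 102 bp at the muscle genes, against 112 bp over the list, and the absolute score rose with width in both (Spearman's rho 0.63 over 65 regions and 0.65 over the 34139, given as a description).

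Among the basic helix-loop-helix factors, a region was found at 1 of 4 genes. All of these genes are under 10 kb, where 13.9% of protein-coding genes held a region. Myf6, which encodes a factor of late muscle differentiation, held a negative region of 180 bp inside the gene with a score of -54.9. Its neighbour Myf5, the first of the family to be expressed in the embryo, had none within 5 kb, the nearest being a negative region 5.12 kb away (score -48.2). Myod1, the muscle determination factor, lay 101 kb from the nearest region. Myog, which drives fusion and terminal differentiation, had none within 5 kb, and the nearest was a negative region of 655 bp 13.5 kb away (score -173).

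The paired box genes, whose products mark muscle precursors and satellite cells, held 8 regions, 6 of them negative. Pax3 (chromosome 1, 78101267 to 78197136) had 5 regions inside the gene, a positive one with a score of 68.9 and negative ones with scores of -43.1, -28.9, -73.6 and -47.6. It thus had the most regions of any regulator, and all but 1 were negative. Pax7 (chromosome 4, 139737059 to 139833530) had regions of both signs inside the gene, with scores of -46.9 and 89.8, and 89.8 was the largest positive score at a regulator. Its remaining region (109 bp, score -76.1) lay 0.394 kb outside the gene and 0.956 kb upstream of the annotated start, inside the noncoding gene Gm46873. It was the only region of the 50 at muscle genes with an annotated start that came within 2 kb of one. The 250 bases before this start are shown because of that position, with capitals for the CpG dinucleotides, the sites at which bisulfite sequencing mostly reads methylation in mammals (RefSeq, GRCm38.p6, minus strand, chr4:139832969-139833218; 13 CpG).
Pax7 upstream: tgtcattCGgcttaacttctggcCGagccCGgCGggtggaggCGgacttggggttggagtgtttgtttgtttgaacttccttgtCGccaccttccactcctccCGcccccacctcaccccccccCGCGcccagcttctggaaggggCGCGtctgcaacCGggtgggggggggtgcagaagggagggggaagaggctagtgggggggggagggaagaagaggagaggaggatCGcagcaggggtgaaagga

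The MEF2 genes were split evenly by sign. Mef2c held 4 regions, 2 of each sign, with the largest score at 65.7, and Mef2a held 1 of each sign with the largest at -41.4. The Mef2a region of -41.4 lay 2.19 kb upstream of the annotated start. Mef2d had no region, the nearest being 15.5 kb away. Of the remaining regulators, Six4, a homeobox factor upstream of the myogenic factors, had 1 positive region (60.5), and its cofactor gene Eya1 had 1 of each sign, with the larger score at -88.4 over 481 bp. Lbx1, needed for the migration of limb muscle precursors, had none within 5 kb, the nearest being a negative region 19.8 kb away.

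Speg held the strongest region of all the muscle genes. It encodes a kinase of striated muscle that associates with the membrane system around the myofibrils, and the gene spans 75375297 to 75432320 on chromosome 1 (mm10). A positive region of 604 bp (75388071 to 75388674) scored 1216, which placed it at rank 7 among the 11146 positive regions of the list. A further positive region of 288 bp scored 279, and the other regions, at 38.3 and -27.7, were weak. All 4 lay inside the gene, and the strongest began 2.46 kb downstream of the nearest of its 4 annotated starts. The density was 5.97 regions per 100 kb of gene and flanks, above that of 95.7% of genes of 50 to 100 kb. The 250 bases before this nearest start are given for reference, CpG in capitals (RefSeq, GRCm38.p6, plus strand, chr1:75385360-75385609; 5 CpG). No region overlapped them, and the sequence of the region itself was not used here.
Speg upstream: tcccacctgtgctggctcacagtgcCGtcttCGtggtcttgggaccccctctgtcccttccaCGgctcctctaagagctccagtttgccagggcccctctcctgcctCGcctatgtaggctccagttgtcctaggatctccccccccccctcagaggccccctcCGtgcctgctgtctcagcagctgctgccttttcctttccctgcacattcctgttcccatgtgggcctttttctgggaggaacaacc

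The genes of the giant proteins nebulin and titin held 4 regions and 1 region. Neb, which encodes nebulin of the thin filament, had 4 regions, 2 of each sign, with the largest score at -56.0 in a gene of 202 kb. Its density was 1.89 regions per 100 kb, above that of 60.1% of genes of 100 kb or more. Ttn, which encodes titin, the spring that spans the sarcomere from Z-disc to M-line, had no region inside its 279 kb and a single one 3.84 kb beyond its end (score -26.8). Ttn thus held 0.347 regions per 100 kb, and 16.6% of genes of 100 kb or more held fewer.

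Mylk held more regions than any other of the 39 genes, and nearly all were negative. It encodes myosin light chain kinase, which acts mainly in smooth muscle and nonmuscle cells, whereas the kinase of skeletal muscle is encoded by another gene. Mylk (chromosome 16, 34745199 to 35002436) had 18 regions inside the gene, 17 negative and 1 positive (31.7). The negative scores ran down to -317, and the median over all 18 was -39.4. The 3 of largest absolute score were -317 (923 bp, 34995225 to 34996147), -115 (34921706 to 34921902) and -101 (34923099 to 34923283). The last 2 lay next to each other and were followed by a region of -45.9. Gaps between neighbouring regions ran from 0.124 to 41.0 kb, with a median of 12.9 kb. The region of -317 began 0.124 kb after one of -33.4, so the count and the density include close neighbours. With 6.74 regions per 100 kb, Mylk was denser than 98.7% of the protein-coding genes of 100 kb or more, and 32 of those 2429 genes, Mylk included, were as dense or denser. Of these genes 115 held 15 or more regions, and at 5 of the 115 the negative share was 17 of 18 or more. Over the whole list 67.4% of regions were negative.

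**Figure D3:**
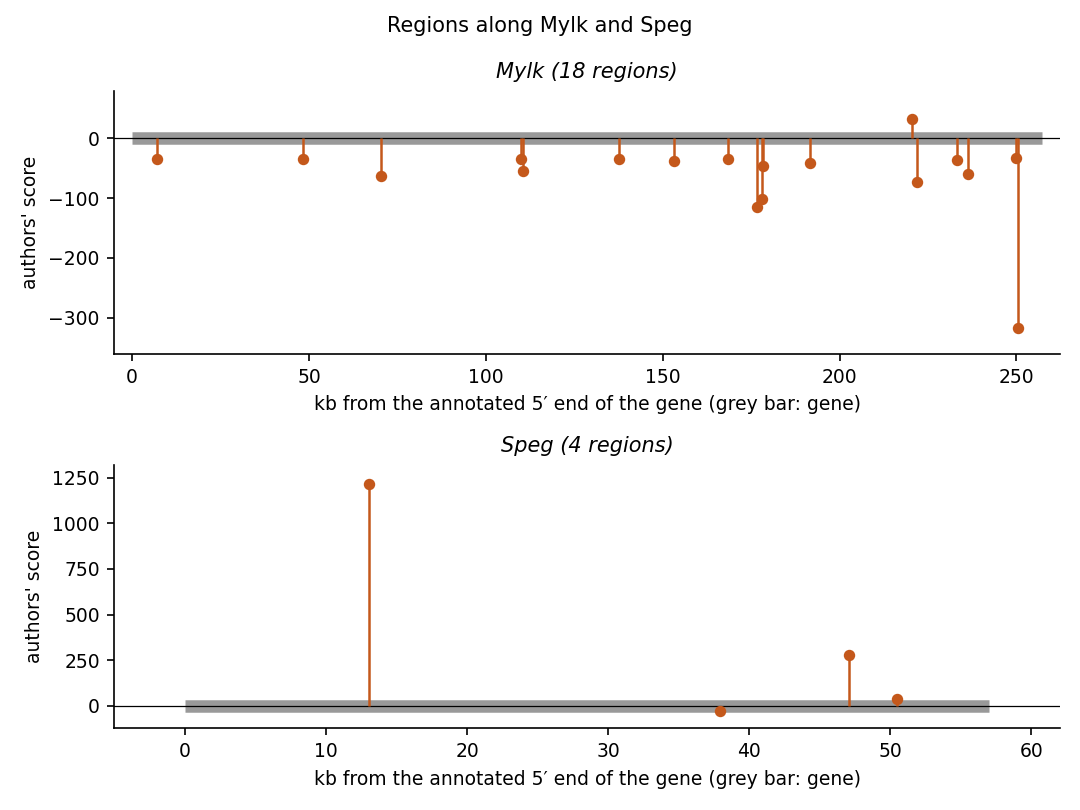
Score of each region (vertical lines with points) against its distance in kb from the annotated 5′ end of Mylk and of Speg, each on its own linear axis, with the gene as a grey bar. All but 1 of the 18 Mylk regions point down, the deepest at -317, and the tallest Speg region stands at 1216.

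The myosin heavy chain genes held regions at 2 of 6. All of them are 10 to 50 kb long, a class in which 32.8% of protein-coding genes held a region. The adult fast chain genes Myh1, Myh2 and Myh4 and the embryonic gene Myh3, which lie together on chromosome 11, had none. A single negative region of 95 bp (score -39.2) lay between Myh1 and Myh4, 5.02 kb from Myh1 and just outside the window. The perinatal gene Myh8, in the same cluster, had 2 negative regions with scores of -35.8 and -128, the stronger of 186 bp (67308367 to 67308552) in the last part of the gene. The slow and cardiac gene Myh7 on chromosome 14 also had 2, both negative, with scores of -39.1 and -80.1. Mylpf, which encodes the regulatory light chain of fast fibres, had none within 50 kb.

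The weaker Myh7 region (75 bp, 54975679 to 54975753) overlapped the gene of miR-208b, a muscle microRNA hosted by Myh7. It covered 54 of the 77 bases of the hairpin and 3 whole CpG dinucleotides of it. The whole mature 3p strand and 9 of the 22 bases of the 5p strand lay inside. The sequences are shown because part of the hairpin lies in the region (RefSeq, GRCm38.p6, minus strand). Capitals mark the bases inside the region in the hairpin, and the seed (bases 2 to 8) in the mature strands, which share no seed.
miR-208b hairpin: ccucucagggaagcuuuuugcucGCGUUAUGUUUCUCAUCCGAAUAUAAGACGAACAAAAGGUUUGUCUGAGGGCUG
mmu-miR-208b-3p: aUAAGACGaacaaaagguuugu
mmu-miR-208b-5p: aAGCUUUUugcucgcguuaugu

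Thin filament genes held 6 regions at 5 of 8 genes (35.1% of all protein-coding genes), with a median absolute score of 52.5 against 49.4 over the list. Acta1, which encodes skeletal muscle actin, had the strongest (-143, 441 bp, chromosome 8, 123899465 to 123899905). It lay 4.69 kb upstream of Acta1 and inside the neighbouring gene Nup133, so it cannot be assigned to Acta1 alone. Both signs were found among the troponin genes. The slow troponin T gene Tnnt1 (-61.1), the fast troponin T gene Tnnt3 (-64.7) and the fast troponin I gene Tnni2 (-22.5) had 1 negative region each. The slow troponin I gene Tnni1 had 2 positive regions, the larger at 43.9. Tnnc2 (fast troponin C) and the tropomyosin genes Tpm1 and Tpm2 had none, with the nearest regions at 28.1, 53.0 and 43.8 kb.

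Z-disc genes held 6 regions at 3 of 4 genes (35.1% of all protein-coding genes), and all 6 were negative. With so few regions, 3 of them in Actn2, the interval on this share (61.0 to 100%) is wide and includes the 67.4% of the list. Actn2, which encodes an α-actinin of cardiac and skeletal muscle, had scores of -25.8, -124 and -38.0, the strongest at 12312344 to 12312522 on chromosome 13. Actn3, the fast fibre α-actinin gene, had 1 region of -48.6. Ldb3, which encodes the Z-disc PDZ-LIM protein ZASP, had a region of -39.5 inside the gene and a stronger one (-127, 367 bp) 3.44 kb outside it. Myoz1, a calsarcin gene, had none within 5 kb.

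The stronger Ldb3 region overlapped the window around the start of a noncoding gene, 9230112D13Rik, so part of its sequence could be read. The 161 bases of the region in that window held 5 CpG, in capitals (RefSeq, GRCm38.p6, minus strand, chr14:34522891-34523051).
Ldb3 region: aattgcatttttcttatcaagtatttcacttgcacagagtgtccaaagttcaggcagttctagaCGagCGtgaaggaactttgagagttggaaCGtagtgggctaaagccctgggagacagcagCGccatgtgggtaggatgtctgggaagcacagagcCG

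Among genes of calcium release and energy supply, regions were found at 2 of 4 (35.1% of all protein-coding genes). The genes with a region were the longer ones. Ryr1 and Cacna1s fall in length classes where 86.2% and 60.7% of protein-coding genes held a region. For Ckm and Pgam2, which had none, these shares were 32.8% and 13.9%. Ryr1, the calcium release channel gene of the sarcoplasmic reticulum, had 2 positive regions and 1 negative, with the largest score at 52.5 over 430 bp. Cacna1s, the voltage sensor gene that couples to it, had 1 positive region (69.8). Ckm, the muscle creatine kinase gene, and Pgam2, the muscle phosphoglycerate mutase gene, had none, with the nearest regions at 17.6 and 83.9 kb. In all, 16 of the 39 genes had no region in the window.

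The windows ended at 5 kb, and values on both sides of that limit were alike in sign. The regions just inside it were those of Acta1 (4.69 kb, score -143) and Ttn (3.84 kb, score -26.8), and those just outside it were next to Myh1 (5.02 kb, -39.2) and Myf5 (5.12 kb, -48.2). With 50 kb on both sides 34 of 39 genes had a region, against 68.5% of all protein-coding genes, and the 5 without were Myod1, Myh3, Mylpf, Tpm1 and Pgam2.

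Most regions lay inside the muscle genes and away from their starts. Of the 65 regions 59 were inside a gene and 6 in the flanks, and 10 also overlapped another gene. The windows spanned 2509 kb in all, with 5 kb of flank on each side of a gene, so most of their length was gene body. The split between gene and flanks therefore follows largely from the rule, and no expected share was computed. A promoter window (250 bases before to 50 after the annotated start) was given by RefSeq for 29 of the 39 genes, with 38 windows in all. No region overlapped any of these 38 windows, against 0.903% of 21263 windows of protein-coding genes. Only the Pax7 region lay within 2 kb of an annotated start of its own gene, 1 of 50, and 3.52% of all regions of the list lay within 2 kb of a start of any protein-coding gene. Neither count stands apart from the list.

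CpG content was counted in the same windows. The 10 regulator windows (7 genes) had a median of 12.5 CpG (1 to 27), and the 28 sarcomere windows (22 genes) a median of 6 (1 to 29), against 13 over all protein-coding windows. Mef2a and Mef2d had the most among the regulators, with 27 and 24. Among the sarcomere genes Speg (29 at one of its starts) and Tpm1 (27) had the most, and Pgam2 and Myh4 had 1 each. The E-box form CAGCTG was found in 0 of 10 regulator windows and 11 of 28 sarcomere windows, against 15.6% of all protein-coding windows. The MEF2-like form, CTA and TAG with 4 bases of any kind between them, was found in 2 of 10 and 4 of 28, against 3.47%. Each form reads the same on both strands, they do not overlap each other in these windows since none held both, and the paired windows of Tnni1 and of Ldb3 overlap and can hold one match counted for each. These matches describe letters only.

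**Figure D4:**
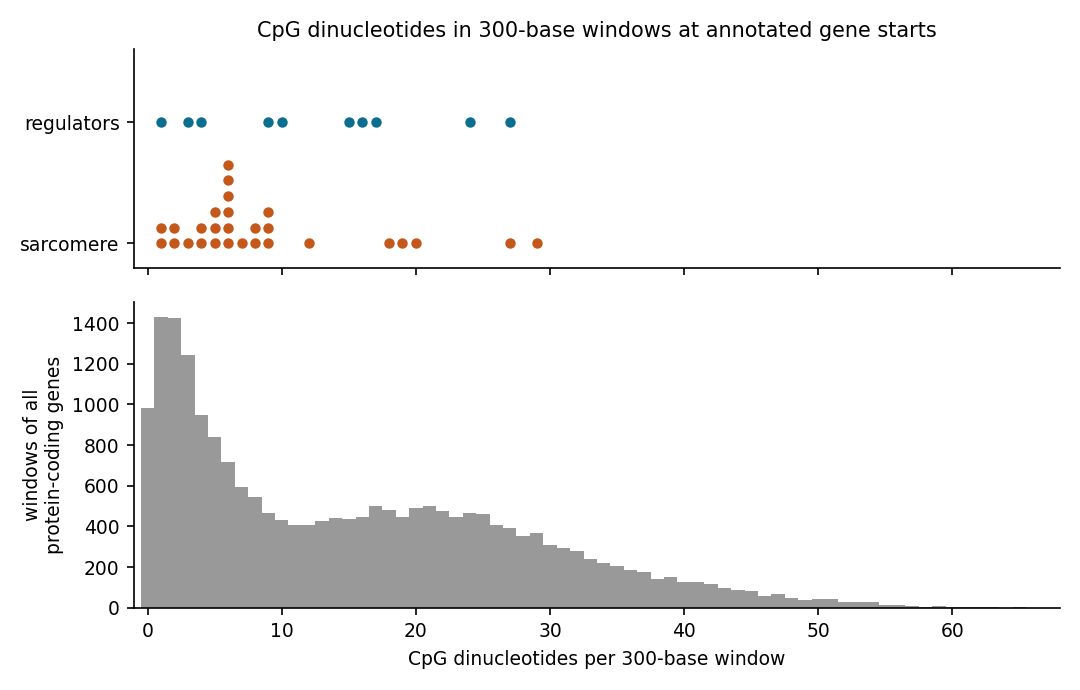
Number of CpG dinucleotides in 300-base windows at annotated starts, with 1 point per window for the myogenic regulators (10 windows) and the sarcomere and contraction genes (28 windows) above the histogram of all 21263 protein-coding windows. The sarcomere points gather around their median of 6, below the median of 13 over all windows.

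Other genes of the muscle programme held regions of both signs. Of 25 further myogenic factors and fusion genes 15 held a region (35.1% of all protein-coding genes), and 26 of their 41 regions were negative, or 63.4% (48.1 to 76.4), against 67.4% of the list. The strongest lay at Tcf21, a mesenchymal factor gene (458 over 1187 bp), at Eya2 (-244) and at Six2 (-148), and Eya2 and Dach1 had the most with 7 each. The fusion genes Mymk and Mymx, the satellite cell cadherin gene Cdh15 and Id1, Id2 and Id3 had none. Of 46 further sarcomere, triad and muscle metabolism genes 32 held a region, against the same 35.1%, with 46 of 71 negative, or 64.8% (53.2 to 74.9), against 67.4% of the list. The triad gene Jph2 had 4 regions, all positive, up to 213, and the largest scores after it were 143 at Myl4, -134 at Myh7b and 128 at Pygm. Nebl, a nebulin relative of the heart, had 8 regions, all negative, and Myom1 had 5, of which 4 were negative.

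Smooth muscle genes were read beside Mylk, since its product acts in that cell type. Of 9 such genes 8 held a region (35.1% of all protein-coding genes), with 15 of 17 regions negative, or 88.2%. The interval on this share (65.7 to 96.7) includes the 67.4% of the list. Des, which is also a gene of skeletal muscle, held 2 of the negative regions. Myh11 and Myocd fall in the length class where 60.7% of protein-coding genes held a region, and Synpo2 in the class with 86.2%. Myocd, which encodes the coactivator of the smooth muscle programme, had the strongest (-251 over 502 bp), followed by Lmod1 (-119), Acta2 (-94.9) and Myh11 (-77.8). Synpo2 had the most with 5, of which 3 were negative, and Cnn1 had none. The list holds scores without a stated unit and no methylation levels, and the part of smooth muscle or pericyte-like cells in the regions at Mylk was not tested.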

How the data were processed

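The deposited file lists regions between a PDGFRα+ and a CD137+ library (1 each) with a position and the authors' signed score; it has no header. Per the submitters' processing notes, coordinates are on mm10. How reads were aligned, how regions were called and how deeply they were covered is not given in the sources used here, so the deposited score served only for ranking and filtering regions inside this list.

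Gene positions came from a RefSeq table of GRCm38.p6, the assembly of mm10. It has no exons, so exons, introns and UTRs could not be told apart. All 39 symbols matched. Regions overlapping a gene body plus 5 kb on both sides by at least 1 bp were counted with Python 3.11.15, pandas 2.3.3 and SciPy 1.17.1, and the counting was tested on simulated data. Wilson 95% intervals cover counting only. Those on shares of regions treat each region as independent, although several can lie in the same gene. No p-value was computed.

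Every gene with a region was named. Genes with 5 or more regions or an absolute score of 100 or more were given with all scores (above 12 regions, the extremes), and other lists with their 4 strongest genes and the 2 with most regions; 1 gene that this rule names is not reported here. Beyond this rule, Des and listed genes without a region were named after their values were seen. Members and lists were chosen with earlier results of these data known. Alternatives were gene bodies alone, 50 kb flanks, absolute scores of 100 or more, widths of 100 bp or more, a stricter overlap (50% of the region inside the window), and leaving out single genes.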

Additional observations from a re-analysis of the deposited data

How the results depend on the processing

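The negative share of the regions at all muscle genes (72.3%), at regulators (61.1%) and at sarcomere genes (76.6%) stayed within its 95% interval under each alternative that gave a value. This is a weak check, since the alternatives reuse the same regions and the intervals are wide (38.6 to 79.7% at regulators). Without Mylk the share at all muscle genes was 63.8%, without Speg and Mylk, a choice made after seeing the data, it was 67.4%, and without Pax3 the regulators stood at 53.8%. Counts moved by more than 1.5 times where the windows or the list changed by construction. Regions at the muscle genes numbered 125 with 50 kb on both sides, 34 at widths of 100 bp or more, 9 at absolute scores of 100 or more and 43 without Speg and Mylk, against 65. At absolute scores of 100 or more, the genes with a region numbered 6 of 39, against 10.8% of all protein-coding genes. All of them were in the group of sarcomere and contraction genes, which includes Mylk. With 0 regulators, no regulator share could be had. With 50 kb flanks 11 of 12 regulators had a region, against 68.5% of all protein-coding genes. Gene bodies alone and a stricter overlap of region and window moved no count by more than 1.5 times. No paired analysis was possible because each group has 1 library and no test was run. Unknown depth and the lack of replicates limit every value.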
